A study of Mus musculus with 6 samples.

Results

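Pax5, Ebf1, Spib, Pou2af1, Cd79a, Cd22, Cr2, Blk and Bank1 are 9 genes by which B cells are recognized, and they were matched by symbol among the 32285 genes of the gene list, where all 9 were found. They were followed in single-cell RNA-Seq of CD45+ cells magnetically isolated from B16-F10 tumors, a transplanted mouse melanoma line grown in female C57BL/6 mice aged 6 to 10 weeks. All mice received 150 μg of the antibody αPD-1 on 3 days per week from day 7 after grafting. The αPD-1 + corin group (3 samples) also received 200 μg of corin, an inhibitor of the CoREST complex, daily from day 6. The labels do not say whether the αPD-1 group (3 samples) was given the vehicle. Each arm had 10 mice, and no label ties a sample to an animal, so the P values measure only the spread between samples, which may be technical. The tumor suspensions had been frozen, thawed and depleted of dead cells before the isolation. The questions asked of the counts were in which lineages these 9 genes were detected, whether they stood above the level that free B cell RNA gives, and whether their levels differed between the treatments.

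Pax5 and Ebf1 are the transcription factors that set up and hold the B cell program, Spib is an ETS family factor of B cells and plasmacytoid dendritic cells, and Pou2af1 is a co-activator that octamer factors recruit and that plasma cells keep when Pax5 and Ebf1 are switched off. Cd79a is the signalling chain of the B cell receptor. Cd22 is an inhibitory lectin of the receptor complex, Cr2 is the complement receptor that lowers the threshold for activation, Blk is a Src family kinase and Bank1 is an adaptor of receptor signalling. B cells in tumors can present antigen and can mature into plasma cells, which secrete antibody.

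In GENCODE vM39 (build GRCm39, the build the study names), Pax5 lies at chr4:44524757-44710487 (ENSMUSG00000014030), Ebf1 at chr11:44508138-44898918 (ENSMUSG00000057098) and Bank1 at chr3:135759124-136031827 (ENSMUSG00000037922). These 3 genes span 186 kb, 391 kb and 273 kb. Spib lies at chr7:44175417-44181495 (ENSMUSG00000008193), Pou2af1 at chr9:51124984-51151380 (ENSMUSG00000032053), Cd79a at chr7:24596740-24601622 (ENSMUSG00000003379), Cd22 at chr7:30564827-30579767 (ENSMUSG00000030577), Cr2 at chr1:194819119-194859091 (ENSMUSG00000026616) and Blk at chr14:63610285-63654587 (ENSMUSG00000014453). These 6 span between 4.88 kb (Cd79a) and 44.3 kb (Blk). Pax5, Ebf1, Bank1, Cd22 and Pou2af1 each overlap a long noncoding gene of the gene list (Gm12462, Gm12158, Gm31243, Gm29439 and Gm47828), the first 4 on the opposite strand, and the strand setting of the counting is not given in the sources used here.

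Promoter sequences are shown because Ebf1 is itself a member and its binding core can be looked for before the starts of the others. The RefSeq promoter table (build GRCm38.p6, not that of the files; 250 bases before to 50 after each start) has entries for 8 of the 9 genes; Blk has none. The core CCCNNGGG, searched on both strands, was found in 3 members and in 13.7% of all 32851 promoters of the table. The stretches below are on the minus strand, 5′ to 3′, with the core in capitals. They are chr7:30879029-30879121 for Cd22, chr3:136326067-136326132 for Bank1 and chr7:44532083-44532181 for Spib, where 2 matches overlap.
Cd22: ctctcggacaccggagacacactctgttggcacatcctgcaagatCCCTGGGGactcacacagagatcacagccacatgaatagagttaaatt
Bank1: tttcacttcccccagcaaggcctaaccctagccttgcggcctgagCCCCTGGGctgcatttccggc
Spib: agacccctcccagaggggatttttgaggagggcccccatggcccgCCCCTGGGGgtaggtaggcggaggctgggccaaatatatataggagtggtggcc
The octamer ATGCAAAT was found in no member and in 1.74% of the promoters. These are matches of letters in a window and no measure of binding.

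The αPD-1 samples held between 52281422 and 63748460 UMIs in 6433 to 7000 barcodes, and the αPD-1 + corin samples held between 78092774 and 84276739 UMIs in 9637 to 13228 barcodes. After the study's filters and doublet removal, 28865 of 52899 barcodes were kept as cells, in 26 clusters that were named from marker lists that hold none of the 9 genes. B-like cells (clusters 1 and 20, with 10 and 8 of the 10 B markers met) made up 20.7% ± 3.67 of the kept cells (SD, n = 3) in αPD-1 samples and 0.680% ± 0.468 (n = 3) in αPD-1 + corin samples. Cells of a cluster in which B and T transcripts lay together made up 8.36% ± 1.597 and 0.144% ± 0.102, and plasma-like cells 3.00% ± 2.20 and 0.0706% ± 0.0432. None of these shares overlapped between the treatments, and the exact two-sided permutation P was 0.1 in each, the smallest that 3 samples against 3 allow. The αPD-1 + corin samples held 45, 47 and 13 B-like cells, 4, 10 and 6 cells with B and T transcripts, and 7, 4 and 1 plasma-like cells, which sets how closely a level can be read there. Between 10 and 32 barcode sequences were shared by any pair of libraries, at most 0.457% of the smaller library.

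All 9 genes were found in the B-like cells of all 6 samples. Levels are given as CPM, the UMIs of a gene scaled to the total UMIs of that lineage in a sample. Pax5 was at 922, 802 and 886 CPM in the αPD-1 samples and at 392, 828 and 328 CPM in the αPD-1 + corin samples. Ebf1 was at 2509, 2275 and 2518 CPM against 1824, 2010 and 1015 CPM. Both factors were lower in αPD-1 + corin replicates 1 and 3 than in any αPD-1 sample. In replicate 2 Pax5 lay within the αPD-1 range and Ebf1 below it, so that Ebf1 did not overlap between the groups. The lowest Pax5 value rests on 10 UMIs, with a 95% exact Poisson interval of 157 to 602 CPM. All such intervals cover counting error only.

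Pou2af1 and Spib were detected in fewer B-like cells. Pou2af1 was at 184, 218 and 192 CPM in the αPD-1 samples and at 136, 189 and 360.3 CPM in the αPD-1 + corin samples, so that the groups overlapped. Spib was at 85.5, 101 and 99.8 CPM against 34.1, 70.9 and 65.5 CPM. The αPD-1 + corin values of Spib rest on 2, 6 and 2 UMIs. A Spib UMI was present in 16.2% to 19.0% of the B-like cells of the αPD-1 samples, and a Pax5 UMI in 73.8% to 76.5%.

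Of the receptor genes, Cd79a was at 1953, 1993 and 1893 CPM in the αPD-1 samples and at 1551, 1927 and 1474 CPM in the αPD-1 + corin samples. Cd22 was at 494, 426 and 446 CPM against 426, 402 and 131 CPM, and the lowest of these rests on 4 UMIs. Cr2 was at 219, 223 and 225 CPM against 205, 236 and 98.3 CPM. Replicate 3 of the combination, with 13 B-like cells, was the lowest of the 6 samples for all 3 of these genes. Blk ranged from 285 to 299 CPM in the αPD-1 samples and from 197 to 260.1 CPM in the αPD-1 + corin samples, and Bank1 from 2226 to 2379 CPM and from 1376 to 2258 CPM.

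**Figure D1:**
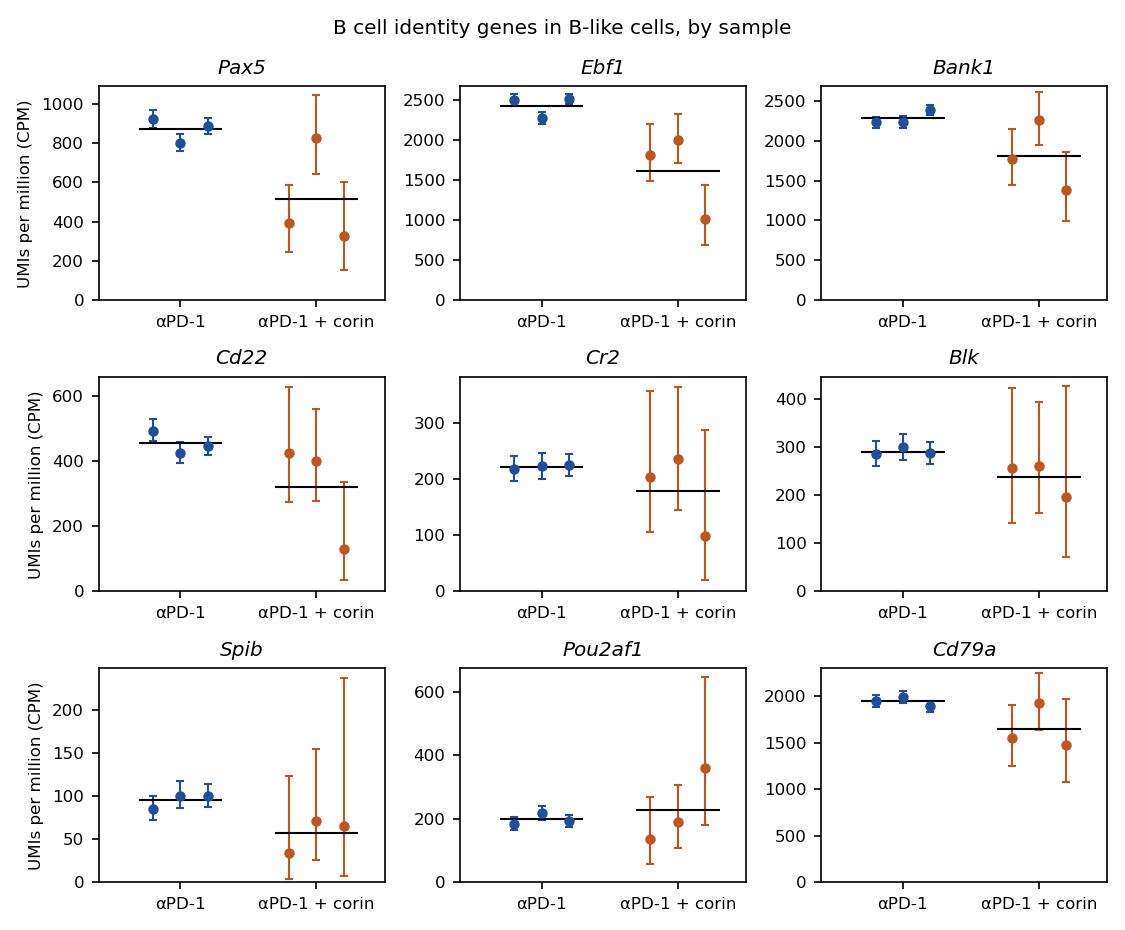
Level of each of the 9 genes in B-like cells, in CPM on linear axes that start at 0, with 1 point per sample, exact 95% Poisson intervals of the counts as bars and the mean of each treatment as a black line. The αPD-1 samples lie close together for each gene, while the αPD-1 + corin samples have wide intervals and spread more, with Pou2af1 reaching from 136 to 360.3 CPM.

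In the edgeR quasi-likelihood test of summed UMIs per sample, none of the 9 genes passed an adjusted P of 0.05 in B-like cells, where 1.16% of the 8044 genes tested did. DESeq2 also called none. The count was 2 without the filter on low counts and 9 with LogNormalize in place of SCTransform, where the B-like class took in a cluster of 2105 cells that met both B and T markers and of which 30.9% had at least 2 UMIs of each. At an unadjusted P under 0.05 edgeR had 2 of the 9 (Pax5 and Ebf1), beside 13.4% of all genes. Pax5 had a log2 fold change of -0.67 ± 0.23 (SE; adjusted P = 0.155, edgeR) and Ebf1 of -0.59 ± 0.19 (adjusted P = 0.126, edgeR), and the other 7 lay between -0.79 and -0.03, beside a median of -0.17 over all genes. For 4 of the 9 there was no overlap between the groups, beside 26.4% of all genes. The shares of all genes called lower and higher were 0.957% and 0.199%. Without αPD-1 + corin replicate 2, both factors passed, with log2 fold changes of -1.46 for Pax5 and -0.92 for Ebf1. Simulated 4-fold changes were found for 91 of 200 genes with these B-like sums, against 187 of 200 with the T-like sums.

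The B-like cells of the αPD-1 samples fell into clusters 1 and 20, in which the 9 genes stood in different proportions. Cluster 20 held 13.4% to 18.0% of these cells. Its level of Pax5 was 2.98 times that of cluster 1 (2.72 to 3.38 over the 3 samples), of Ebf1 2.79 times (2.72 to 2.94) and of Bank1 2.53 times (2.42 to 2.65). Cd79a went the other way, with 288, 364 and 332 CPM in cluster 20 against 2197, 2242 and 2067 CPM in cluster 1. The remaining ratios were 1.53 for Pou2af1, 1.13 for Blk, 1.11 for Cr2, 1.07 for Cd22 and 0.903 for Spib. The 3 genes with ratios of 2.53 and above are the 3 that span over 100 kb, and Cd79a is the shortest of the 9. In the same cells the nuclear RNA Malat1 stood at 2.42 times and Actb, a cytoskeletal mRNA, at 0.333 times its level in cluster 1. The clusters were found from these cells, so the ratios are descriptions with no test. The B-like cells of αPD-1 + corin samples were nearly all of cluster 1 (cluster 20 held 0, 2 and 0 of them). Within cluster 1, Pax5 was at 756, 609.9 and 748 CPM in the αPD-1 samples and at 392, 773 and 328 CPM in the αPD-1 + corin samples, and Ebf1 at 2058, 1854 and 2107 CPM against 1824, 1909 and 1015 CPM, so that both overlapped between the groups.

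Outside the B-like cells, the level of each gene was set against its own mean level in αPD-1 B-like cells. In T-like cells of the αPD-1 samples all 9 genes lay between 10.0% (Cr2) and 11.9% (Cd22) of that level. The 10 B markers, genes such as Ms4a1 and Cd79b that were used to name clusters, lay between 7.63% and 18.0% in the same cells, with a median of 10.0%. In T-like cells of the αPD-1 + corin samples the 9 genes lay between 0.240% (Cr2) and 1.41% (Spib) and the markers at a median of 0.831%. The share of each gene among all UMIs of the 9 was also close to that in B-like cells. Ebf1 took 27.6% ± 1.08 of them in T-like cells and 27.7% ± 0.970 in B-like cells of the αPD-1 samples, Bank1 25.7% ± 0.185 and 25.9% ± 0.790, and Cd79a 21.7% ± 1.12 and 22.2% ± 1.04 (SD, n = 3 each).

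**Figure D2:**
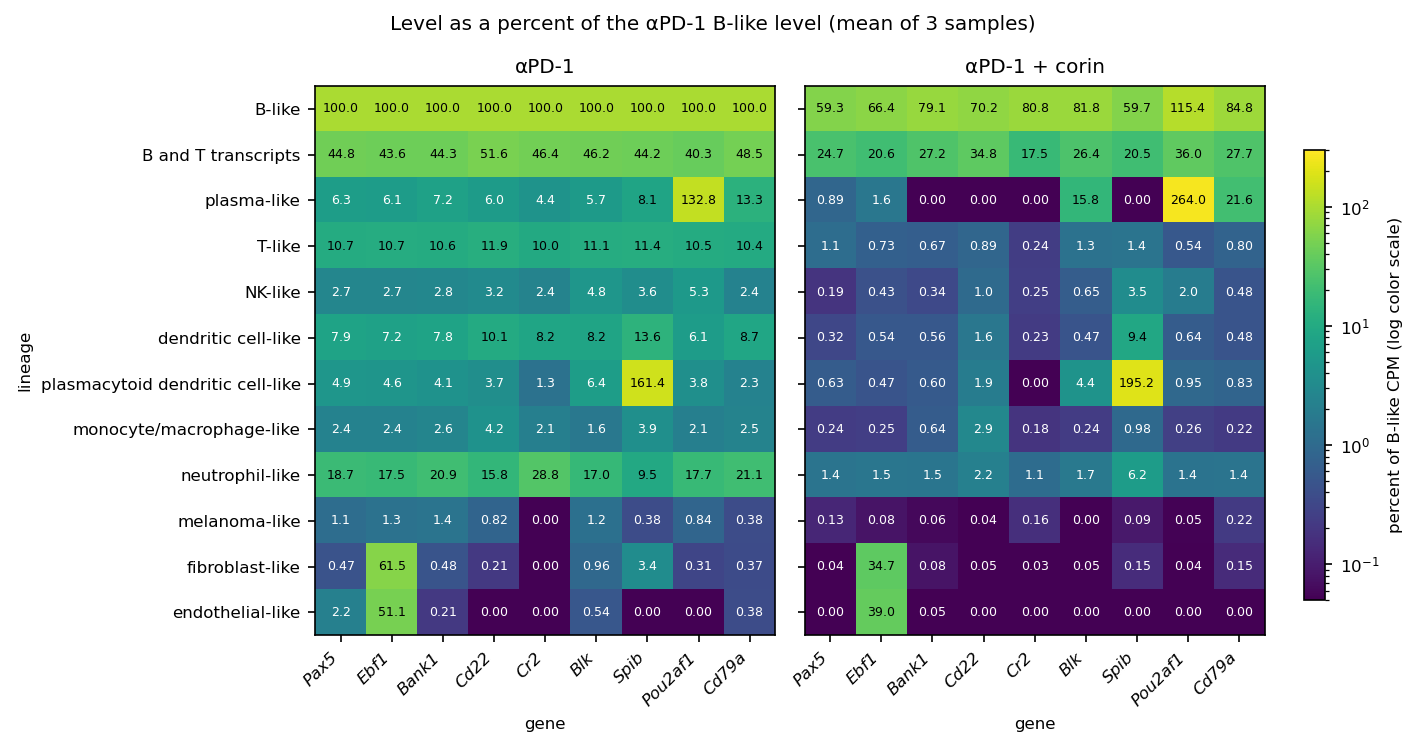
Level of each gene (columns) in each lineage (rows) as a percent of its mean level in αPD-1 B-like cells, as the mean of the 3 samples of a treatment, on a log color scale with the percent printed in each cell. The αPD-1 T-like row is nearly even, at 10.0% to 11.9%, while Pou2af1 in plasma-like cells (133%), Spib in plasmacytoid-dendritic-cell-like cells (161%) and Ebf1 in fibroblast-like cells (61.5%) stand apart from the other genes of their rows.

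The αPD-1 T-like samples differed from one another in all 9 genes together. Pax5 was at 99.0, 50.2 and 129 CPM and Cd79a at 202, 111 and 292 CPM, with replicate 2 the lowest and replicate 3 the highest for both. In the αPD-1 + corin samples Pax5 was at 24.8, 3.17 and 0.849 CPM and Cd79a at 33.5, 8.45 and 4.67 CPM. Each αPD-1 sample lay above each αPD-1 + corin sample for all 9 genes, as for 25.3% of all genes tested in this lineage. Within the αPD-1 T-like cells the UMIs were uneven between clusters, with Bank1 at 472 CPM and Cd79a at 387 CPM in cluster 7 and both at 45.8 CPM in cluster 14 (pooled over the 3 samples). Of all cells of cluster 7, both treatments together, 23.4% had at least 2 UMIs of T markers and 2 of B markers.

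The UMIs of the 9 genes sat in a minority of the T-like cells, those that also held B markers. Cells were divided by how many of 7 B markers had a UMI in them (among them Ms4a1, Cd79b, Ighd, Fcer2a, Vpreb3 and Tnfrsf13c; they are the marker list without Ighm, Ly6d and Fcrla, left out after other lineages were seen to hold them). In the αPD-1 samples, T-like cells with 3 or more of the markers made up 13.4% of the class and held 69.8% of its UMIs of the 9 genes, at 18.5 ± 1.69 UMIs per cell (SD, n = 3). B-like cells with 3 or more held 20.7 ± 0.358 UMIs per cell. T-like cells with none of the markers made up 73.2% of the class and held 0.330 ± 0.077 UMIs per cell with αPD-1 alone and 0.080 ± 0.037 with the combination. Melanoma-like cells with none of the markers, which should lack all 9 genes, held 0.203 ± 0.191 and 0.037 ± 0.012 UMIs per cell. The share of T-like cells with a UMI of any of the 9 genes, after each cell was thinned to 1000 UMIs, was 24.5% ± 7.42 and 4.37% ± 3.59 (30.3% and 8.58% unthinned, median depths of 2296 to 3080 and 2838 to 5706 UMIs, with 68 and 13 shallower cells left out). In melanoma-like cells it was 6.23% ± 5.34 and 1.31% ± 0.605 (10.7% and 3.48% unthinned, median depths of 2823 to 5550 and 4125 to 5252 UMIs, with 15 and 16 cells left out).

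**Figure D3:**
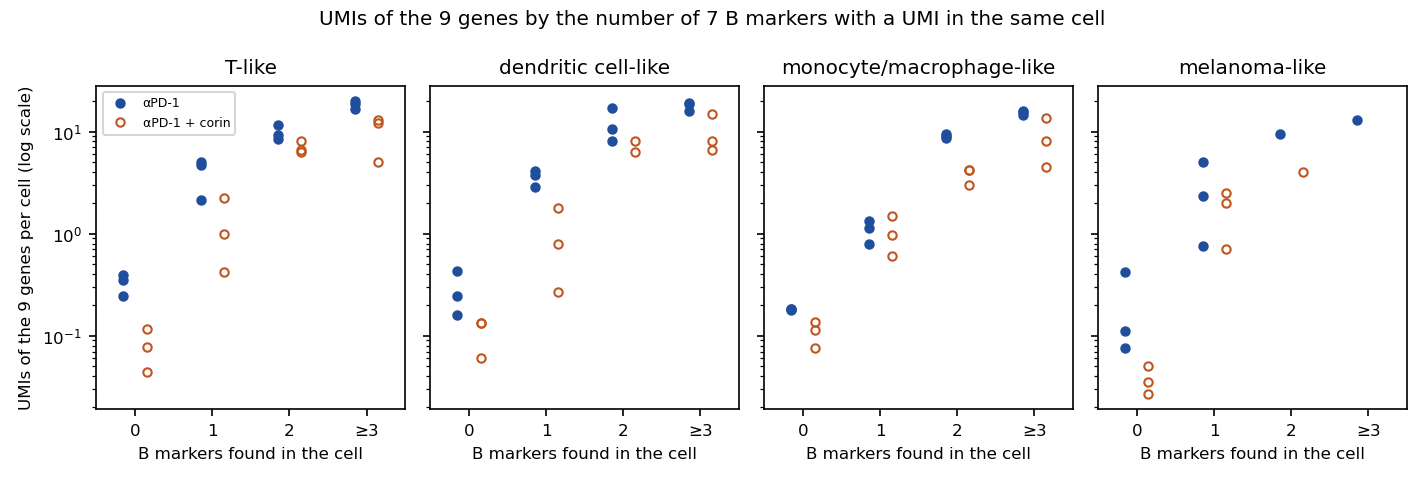
UMIs of the 9 genes per cell, on a log axis, in T-, dendritic-cell-, monocyte/macrophage- and melanoma-like cells, by how many of 7 B markers had a UMI in the same cell (horizontal axis), with 1 point per sample, filled for αPD-1 and open for αPD-1 + corin. In each of the 3 immune panels the αPD-1 samples rise from 0.160 to 0.430 UMIs in cells with no marker to 14.4 to 20.1 UMIs in cells with 3 or more.

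In T-like cells all 9 genes passed the edgeR test, each lower in the αPD-1 + corin samples, beside 10.9% of the 11144 genes tested that were called lower. Adjusted P values lay between 0.00046 and 0.00712 (edgeR), and the median log2 fold change was -4.43, beside 0.0073 over all genes. Pax5 had a log2 fold change of -4.58 ± 0.75 (SE), Ebf1 of -4.57 ± 0.65, Pou2af1 of -4.46 ± 0.42, Cd79a of -4.35 ± 0.57 and Spib of -3.05 ± 0.53. Cr2 had 68, 60 and 96 UMIs with αPD-1 alone and 1, 0 and 1 with the combination, too few for a fold. Pou2af1 and Spib averaged 1.07 and 1.34 CPM with the combination. Cr2, Pou2af1 and Spib thus passed the filter on low counts through the αPD-1 samples. Pax5 and Blk did so too, both at 0.849 CPM in their lowest αPD-1 + corin sample. The count of 9 includes all 5 of these. When T-like cells with a UMI of the 7 markers were left out, Ebf1 had 180 UMIs in 1917 cells with αPD-1 alone and 20 UMIs in 1648 cells with the combination. In the same cells Pax5 had 73 and 7 UMIs, Bank1 187 and 23, Cd79a 66 and 8 and Cd22 47 and 23. Only 4 of the 9 genes passed the filter on low counts there, through the αPD-1 samples in which they were higher, so no test of them is given. The B-like share of the cells moved with the treatment in the same direction, as given above, and its part in the T-like levels was not tested.

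Cells of the cluster with both B and T transcripts carried all 9 genes in the αPD-1 samples. Ebf1 was at 1066, 916 and 1200 CPM there, Cd79a at 924, 923 and 985 CPM and Pax5 at 413, 346 and 412 CPM. Each gene lay between 40.3% (Pou2af1) and 51.6% (Cd22) of its B-like level, and the 10 B markers between 43.7% and 52.1%. Per cell the difference from B-like cells was smaller, with 20.1 to 22.0 UMIs of the 9 genes per cell against 19.0 to 20.0, at a median depth of 4114 to 4887 UMIs per cell against 1610 to 1941. A UMI of Bank1 was present in 91.6% to 93.3% of these cells. In the αPD-1 + corin samples the cluster held 20 cells in all, and no test was made.

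Pou2af1 was the member that plasma-like cells held above the B-like level. It was at 269, 279 and 241 CPM in the plasma-like cells of the αPD-1 samples, 133% of its mean B-like level, and a UMI was present in 64.6% to 69.4% of the cells. In the αPD-1 + corin samples it was at 326, 154 and 1089 CPM from 14, 7 and 12 UMIs, with a 95% exact Poisson interval of 563 to 1903 CPM for the highest, which comes from 1 cell. Each αPD-1 plasma-like value lay above each αPD-1 B-like value of 184 to 218 CPM. Cd79a was at 279.9, 181 and 313 CPM, 13.3% of its B-like level. The other 7 genes lay between 4.43% (Cr2) and 8.13% of theirs, with Pax5 at 64.7, 21.5 and 78.7 CPM. Replicate 2, with 24 plasma-like cells, was the lowest of the 3 for Pax5, Cd79a and Ebf1. Too few plasma-like cells were present in the αPD-1 + corin samples for a test.

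Spib was the member that plasmacytoid-dendritic-cell-like cells held above the B-like level in both treatments. It was at 156, 187 and 118 CPM in the αPD-1 samples and at 169, 257 and 132 CPM in the αPD-1 + corin samples, while Pax5 was at 14.6 to 76.8 CPM and at 3.89 to 6.94 CPM. In cells without any of the 7 B markers, Spib had 67 UMIs in 104 cells (159 CPM) in the αPD-1 samples and 138 UMIs in 237 cells (209 CPM) in the αPD-1 + corin samples, pooled over samples. Ebf1 and Bank1 both had 0 UMIs in those 237 cells, which allows up to 0.0156 UMIs per cell (upper bound of the exact 95% Poisson interval). The log2 fold change of Spib between the treatments was 0.30 ± 0.27 (SE; adjusted P = 0.706, edgeR). This lineage was tested after its levels had been seen, and 0.267% of its 4122 tested genes passed. It was -0.048 without αPD-1 + corin replicate 2. The other 8 genes did not pass the filter on low counts there.

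In the other dendritic-cell-like cells, Spib was at 17.3, 8.01 and 13.6 CPM in the αPD-1 samples and at 10.6, 14.3 and 1.89 CPM in the αPD-1 + corin samples, and the groups overlapped. Of the 8 tested, 7 were higher in each αPD-1 sample than in any αPD-1 + corin sample, beside 12.8% of all genes tested. Pou2af1, which was not tested, did not overlap between the groups either. Cd79a was at 173, 169 and 165 CPM against 17.2, 8.72 and 1.89 CPM. Of 8 genes tested, 7 were lower in αPD-1 + corin samples, beside 0.822% of the 8759 genes tested that were called lower. Among the 7, Cr2 had 22, 16 and 18 UMIs with αPD-1 alone and 3, 0 and 0 with the combination. Blk had 25, 20 and 28 against 5, 2 and 0, and both passed the filter on low counts through the αPD-1 samples. Pax5 and Cd22 did so too, at no more than 4.54 and 7.57 CPM in any αPD-1 + corin sample. Ebf1, Bank1 and Cd79a also did, at 5.67, 2.52 and 1.89 CPM in the lowest αPD-1 + corin sample of each. All 7 called genes thus entered the test through the αPD-1 samples. Pax5 had a log2 fold change of -4.45 ± 0.37 (SE), Cd79a of -4.02 ± 0.39 and Cd22 of -2.57 ± 0.22, and Spib did not pass, at -0.51 ± 0.54 (adjusted P = 0.765, edgeR). Pou2af1 did not pass the filter on low counts. Without αPD-1 replicate 3, 4 genes passed.

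In dendritic-cell-like cells with none of the 7 markers the order of the genes was another one. Spib had 19 UMIs in 303 cells (10.9 CPM, 11.4% of its B-like level) in the αPD-1 samples and 32 UMIs in 882 cells (7.29 CPM, 7.65%) in the αPD-1 + corin samples. Ebf1 in the same cells was at 0.3999% and 0.131% of its B-like level and Bank1 at 0.402% and 0.220%. In melanoma-like cells with no marker, Spib had 0 UMIs in 351 cells and 0 in 1494 cells, which allows up to 0.0105 and 0.0025 UMIs per cell. The lower bounds in the dendritic-cell-like cells were 0.0378 and 0.0248 UMIs per cell. These Poisson bounds pool the cells of the samples of a treatment, so the spread between samples is not covered and no difference was tested. Cells with 3 or more markers made up 20.8% of the dendritic-cell-like cells of the αPD-1 samples and held 79.2% of their UMIs of the 9 genes. With the cells that held a marker left out, no member had enough counts to be tested.

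**Figure D4:**
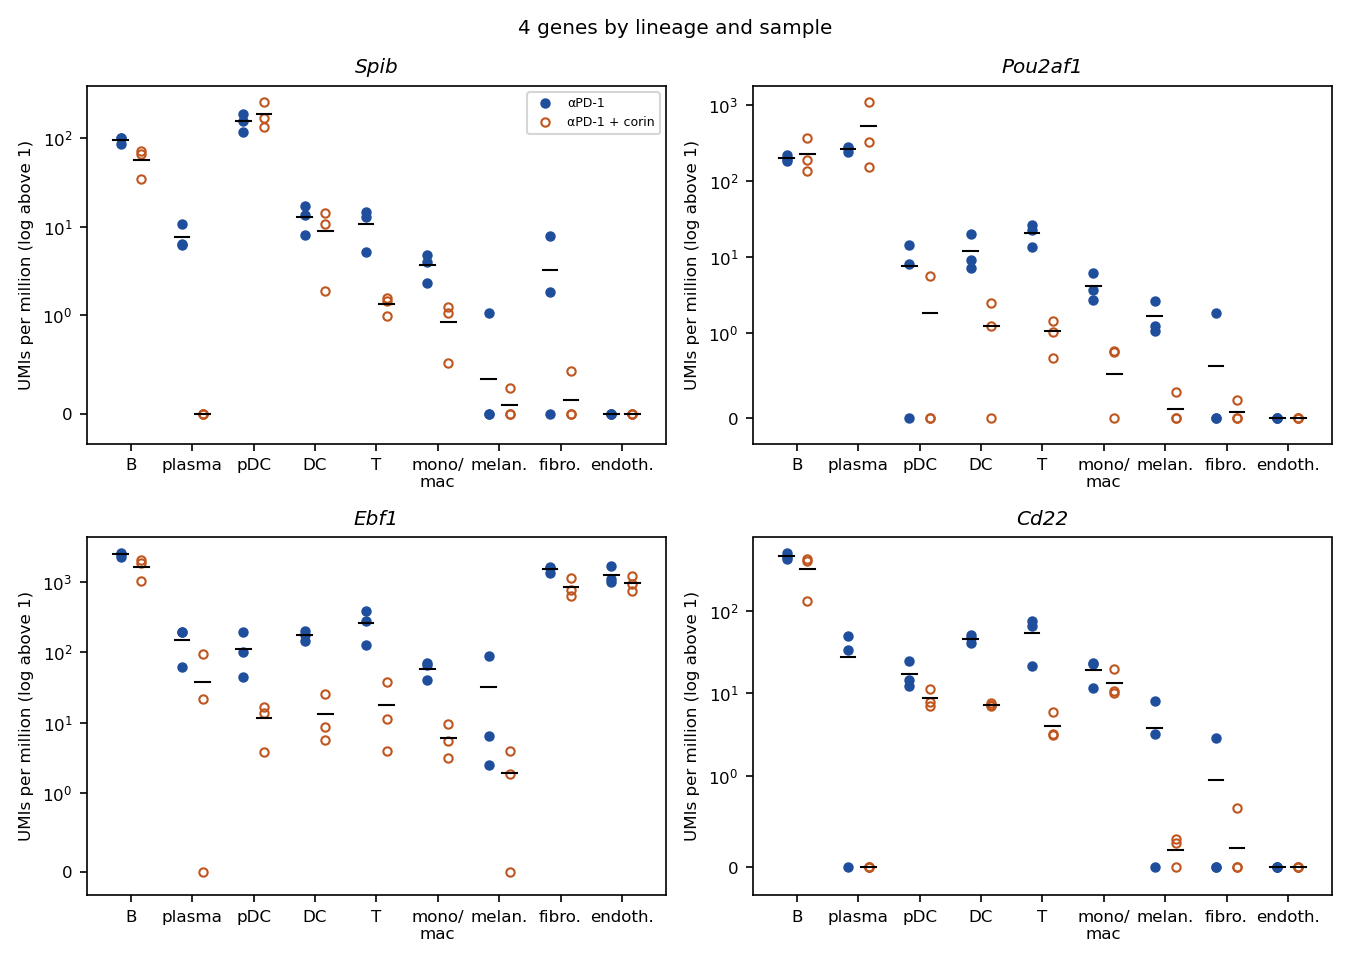
Levels of Spib, Pou2af1, Ebf1 and Cd22 in 9 lineages, in CPM on an axis that is linear below 1 and logarithmic above, with 1 point per sample (filled for αPD-1, open for αPD-1 + corin) and the mean of each treatment as a black line. Spib stands highest in plasmacytoid-dendritic-cell-like cells (118 to 257 CPM), Pou2af1 in plasma-like cells, Ebf1 is also at 630.4 CPM or more in fibroblast- and endothelial-like cells, and Cd22 in monocyte/macrophage-like cells lies at 10.1 to 23.2 CPM in all 6 samples.

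In monocyte/macrophage-like cells Cd22 had the smallest fold change of the 9 genes. It was at 22.7, 11.5 and 23.2 CPM in the αPD-1 samples and at 10.1, 10.6 and 19.4 CPM in the αPD-1 + corin samples, and the groups overlapped. Bank1 was at 58.5, 47.1 and 72.1 CPM against 13.1, 17.4 and 13.1 CPM, and Ebf1 at 65.4, 39.8 and 69.6 CPM against 9.71, 5.57 and 3.17 CPM. Of the 9 genes, 4 were lower in αPD-1 + corin samples (Pax5, Ebf1, Bank1 and Cd79a), beside 0.323% of the 12058 genes tested that were called lower. Their log2 fold changes were -2.98 ± 0.36, -2.98 ± 0.37, -1.88 ± 0.20 and -3.17 ± 0.39 (SE), with adjusted P values between 0.0109 and 0.0175 (edgeR), and the median of the 9 was -2.62, beside 0.0059 over all genes. Pax5 passed the filter on low counts through the αPD-1 samples, at 1.24 CPM in its lowest αPD-1 + corin sample, and the count of 4 includes it. Cr2, Blk, Spib and Pou2af1 did so too, averaging 0.41, 0.68, 0.94 and 0.52 CPM with the combination. The median of the 9 includes them. Cd22 had -0.38 ± 0.33 (adjusted P = 0.53, edgeR). The count was 0 without αPD-1 replicate 1 or replicate 3, 1 without αPD-1 + corin replicate 2 and 8 without αPD-1 + corin replicate 3.

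The fall of Cd22 differed between the lineages. In the test of the difference itself, with the sample as a block, the log2 fold change of Cd22 was more negative in T-like than in monocyte/macrophage-like cells by 3.64 on the log2 scale (-3.64 ± 0.33, SE; adjusted P = 0.000112, edgeR), and that of Bank1 by 2.39 (-2.39 ± 0.38; adjusted P = 0.0037, edgeR). The other 7 genes did not pass, and 1.87% of the 12638 genes tested were called in this direction. DESeq2 called 1 of the 2, Cd22. Between dendritic-cell-like and monocyte/macrophage-like cells Cd22 again differed (-2.20 ± 0.34; adjusted P = 0.0281, edgeR), beside 0.0518% of 11588 genes, but this call was lost in 5 of the 6 fits that left out 1 sample, all but that without αPD-1 + corin replicate 3. Between T-like and dendritic-cell-like cells edgeR called none of the 9 (beside 1.15% of 10588 genes), with 1 at an unadjusted P under 0.05 (Spib, 16.1% of all genes), and DESeq2 called none. Without αPD-1 + corin replicate 3, 1 of the 9, Spib, was called there.

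The monocyte/macrophage-like cells with no UMI of the 7 markers kept Cd22. It had 114 UMIs in 3203 cells (8.46 CPM) in the αPD-1 samples and 351 UMIs in 7784 cells (11.0 CPM) in the αPD-1 + corin samples. The latter is 0.0451 UMIs per cell (exact 95% Poisson interval 0.0405 to 0.0501), while melanoma-like cells of the same libraries had 1 UMI in 1494 cells (interval up to 0.0037). Bank1 had 258 UMIs in the 7784 cells (8.10 CPM, 0.0331 UMIs per cell, interval 0.0292 to 0.0374) and 3 UMIs in the 1494 melanoma-like cells (interval up to 0.0059). Ebf1 had 41 UMIs in the 7784 cells (0.0053 per cell) and 12 in the melanoma-like cells (0.0080 per cell), and these intervals overlapped. All intervals of this paragraph pool the cells of the samples of a treatment, so the spread between samples is not covered and no difference between these lineages was tested. Cd22 took 31.7% of the UMIs of the 9 genes in the monocyte/macrophage-like cells of αPD-1 + corin samples (21.4% to 47.8%), against 5.18% in αPD-1 B-like cells. In the same αPD-1 + corin samples it took 18.2% in dendritic-cell-like cells (7.69% to 33.3%) and 8.87% in T-like cells (4.17% to 15.7%). In plasmacytoid-dendritic-cell-like cells it took 3.48%. With the cells that held one of the 7 markers left out, the log2 fold change of Cd22 was 0.62 (adjusted P = 0.343, edgeR) and none of the 4 genes tested passed.

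Ebf1 was high in lineages outside the blood. In fibroblast-like cells it was at 1328, 1598 and 1566 CPM in the αPD-1 samples and at 630.4, 757 and 1145 CPM in the αPD-1 + corin samples, with a UMI in 74.7% to 97.4% of the cells. Bank1 in the same cells did not exceed 28.5 CPM and Cd79a 14.3 CPM. The log2 fold change of Ebf1 was -0.84 ± 0.32 (SE; adjusted P = 0.152, edgeR; 2.14% of the 6901 genes tested passed in either direction), and although its values did not overlap between the groups, those of 25.4% of all genes did not either. Without αPD-1 + corin replicate 3 it passed, at -1.11 (adjusted P = 0.0258, edgeR), and this lineage too was tested after its levels had been seen. In endothelial-like cells Ebf1 was at 976, 1663 and 1090 CPM and at 740.4, 1195 and 913 CPM, from 11 to 49 cells per sample. Ebf1 made up 98.1% and 97.9% of the UMIs of the 9 genes in these lineages of the αPD-1 samples. As the sample was enriched for CD45+ cells, the fibroblast-, endothelial- and melanoma-like cells are those that the isolation left behind.

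Neutrophil-like cells, 14 to 21 per αPD-1 sample, lay between 9.49% (Spib) and 28.8% (Cr2) of the B-like levels in αPD-1 samples. In αPD-1 + corin samples, with 95 to 1221 cells, Spib stood at 6.19% and the other 8 genes between 1.09% and 2.19%. NK-like cells, of a cluster that also met all 6 T markers, lay between 2.35% and 5.29% in αPD-1 samples and at or below 3.49% in αPD-1 + corin samples.

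Summed over the 25829 immune cells kept, 8 of the 9 genes were lower in αPD-1 + corin samples, beside 8.49% of the 14471 genes tested that were called lower. Pou2af1 had a log2 fold change of -4.48 ± 0.32 (SE), Cd79a of -4.55 ± 0.49, Pax5 of -4.79 ± 0.60, Ebf1 of -4.58 ± 0.65 and Cd22 of -3.07 ± 0.23, and the median of the 9 was -4.48, beside -0.0003 over all genes. Spib did not pass, at -1.79 ± 0.48 (adjusted P = 0.0563, edgeR), although it was lower in each αPD-1 + corin sample than in any αPD-1 sample, as were 33.2% of all genes. In such a sum fewer B cells and less RNA per cell cannot be told apart. The count was 3 without αPD-1 replicate 1 and 3 without αPD-1 replicate 3.

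**Figure D5:**
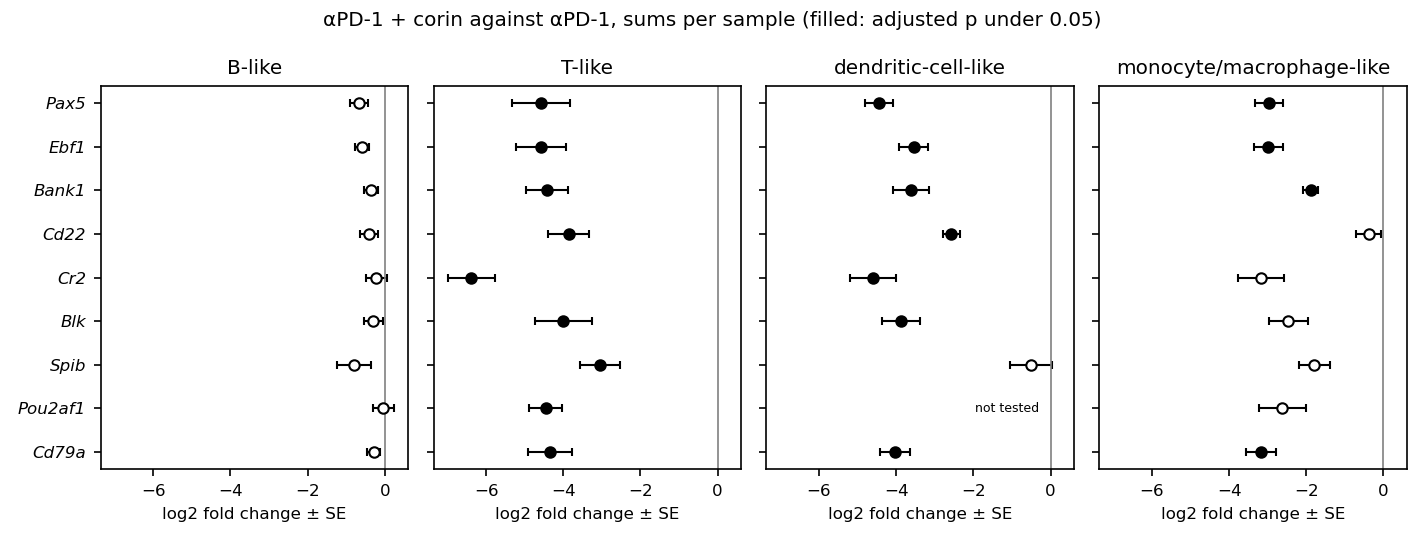
Log2 fold change of each gene between αPD-1 + corin and αPD-1 samples, with its SE, from edgeR on UMIs summed per sample in 4 lineages, filled where the adjusted P was under 0.05. The B-like points lie between -0.79 and -0.03 and are all open, and the T-like points are all filled. Spib in dendritic-cell-like cells and Cd22 in monocyte/macrophage-like cells are open points near 0. Cr2, Blk, Spib and Pou2af1 in monocyte/macrophage-like cells are open as well, further from 0. Pou2af1 was not tested in dendritic-cell-like cells.

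Other genes of the B cell program were followed with lists of receptor, signalling, transcription factor, homing, activation and plasma cell genes, which leave out the 9. In T-like cells 9 of 12 receptor genes, 11 of 21 signalling genes, 10 of 17 transcription factors and 8 of 14 homing and survival receptors were lower, with medians of -2.50, -0.52, -0.86 and -1.13, beside 10.9% of all genes called lower and a median of 0.0073. Ms4a1, the CD20 gene, had a log2 fold change of -5.84 ± 0.55 (SE) and Fcmr, the IgM Fc receptor gene, of -5.64 ± 0.57. These genes averaged 2.18 and 2.36 CPM with the combination and passed the filter on low counts through the αPD-1 samples. The counts of their lists include them. In the other direction 1 signalling gene and 1 transcription factor were higher, beside 6.63% of all genes. Of 6 plasma cell genes tested, 1 was lower (Mzb1, -3.54 ± 0.54) and 2 were higher, among them Prdm1, a factor that T cells also use (0.63 ± 0.15). Mzb1 averaged 2.89 CPM with the combination and also passed the filter through the αPD-1 samples. Of 9 activation and germinal center genes, 2 were lower, among them Bcl6 (-0.71 ± 0.15).

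In B-like cells the lists gave few calls, beside 0.957% of all genes called lower and 0.199% called higher. None of the 12 receptor genes, 14 homing genes or 6 plasma cell genes passed the edgeR test. Of the 17 transcription factors 3 were lower, among them Bach2, a repressor of plasma cell fate, at 2092 CPM in αPD-1 and 947 CPM in αPD-1 + corin samples on average (-1.17 ± 0.19; adjusted P = 0.00025, edgeR), and Bcl11a (-1.38 ± 0.27). Ptpn6, a phosphatase that restrains receptor signalling, was the 1 of 21 signalling genes that was lower (-1.40 ± 0.31), and Cd86, a costimulatory ligand, the 1 of 7 activation genes that was higher (1.14 ± 0.23). The share of cluster 20 among B-like cells, given above, also differed between the treatments, and its part in these values was not tested.

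In dendritic-cell-like cells 7 of 12 receptor genes, 3 of 21 signalling genes, 3 of 16 transcription factors, 3 of 13 homing genes, none of 9 activation genes and 1 of 5 plasma cell genes were lower, beside 0.822% of all genes, and none was higher. In monocyte/macrophage-like cells the counts lower were 6 of 12, 0 of 21, 3 of 17, 3 of 14, 0 of 10 and 0 of 7, beside 0.323% of all genes, again with none higher. The 10 B markers, which named the clusters, were lower in 10 of 10 tested in T-like, 8 of 9 in dendritic-cell-like and 7 of 9 in monocyte/macrophage-like cells, and in none of 10 in B-like cells. These counts include genes that passed the filter on low counts through the αPD-1 samples. Ms4a1 did so in T-like and dendritic-cell-like cells, where it averaged 2.18 and 1.79 CPM with the combination. Over all immune cells 8 of 12 receptor genes, 6 of 21 signalling genes, 11 of 17 transcription factors, 5 of 14 homing genes, 1 of 11 activation genes and 4 of 10 plasma cell genes were lower, beside 8.49% of all genes, and 1 activation gene was higher, beside 4.04%. The share of the activation genes that was lower is near that of all genes.

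Many UMIs of the 9 genes were in barcodes that the filters removed. Over all barcodes of a library the 9 genes together made up 889, 694 and 833 CPM in the αPD-1 samples and 114, 65.8 and 48.5 CPM in the αPD-1 + corin samples, so the difference between the groups was present before any filter or cluster name. In the αPD-1 samples 35.8% of these UMIs were in B-like cells, 15.3% in the cluster with B and T transcripts, 6.50% in T-like cells, 22.0% in barcodes removed for over 4000 genes and 6.00% in those removed by doublet score (means of 3). In the αPD-1 + corin samples 6.92% were in B-like cells, 25.3% in fibroblast-like cells, where they were nearly all Ebf1, 28.3% in barcodes with over 4000 genes and 9.18% in those removed by doublet score. The barcodes removed by doublet score held 12.5 to 17.5 UMIs of the 9 genes each in αPD-1 samples and 0.917 to 1.39 in αPD-1 + corin samples.

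Across the 12 named lineages (mean of the αPD-1 samples), the genes outside the set whose levels followed the mean profile of the 9 most closely included Ms4a1, Fcmr, Cacna1i and Ighd, with Pearson r of 0.989, 0.982, 0.979 and 0.977 on log2 (CPM + 10). Of the 9 themselves, Pax5 and Blk had 0.986, Cd22 0.9749, Cr2 0.969, Cd79a 0.965 and Bank1 0.962. Each of the 9 is part of the mean profile, so these values cannot be set beside those of genes outside the set. Pou2af1 (0.814), Spib (0.686) and Ebf1 (0.526) followed it less, and these are the genes found above at high levels in plasma-, plasmacytoid-dendritic-cell- and fibroblast-like cells. The lineages share the same 3 libraries and their free RNA, and the correlations are descriptions with no test.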

How the data were processed

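Single-cell 5′ RNA-Seq libraries (Chromium GEM-X 5′ v3) of CD45+ cells were measured in 6 samples, 3 of each treatment. The deposited files held raw UMI counts per gene and called barcode, made by the authors with Cell Ranger 8.0 on GRCm39. Their notes also name Seurat 5.0.11. Only barcodes called as cells were present, with 500 UMIs at the lowest, so free RNA was not measured in empty droplets. About 23000 cells were loaded per library by the labels, 6433 to 13228 barcodes were in the files, and 3663 to 7860 were kept.

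The limits of the study (600 to 4000 genes, mitochondrial share up to 10%) were applied to the barcodes, and 2002 were removed by Scrublet score (scanpy 1.11.5; 0.4% per 1000 barcodes), where the study used DoubletFinder. Cells were clustered with Seurat 5.3.0 (SCTransform, 20 components, resolution 0.8), with the 9 genes and all markers left out of the variable genes. A cluster was named "-like" from at least 3 markers, and the names are rebuilt, not the authors'. A cluster that met both NK and T markers was called NK-like and kept out of the T-like class.

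UMIs were summed per sample and lineage and tested with edgeR 4.0.16 (quasi-likelihood, TMM, filterByExpr, Benjamini-Hochberg over all genes) where each sample had at least 10 cells. Differences between lineages were tested as an interaction with the sample as a block. Alternatives were DESeq2 1.42.0, other normalization, filters, clustering and doublet treatment, and leaving out each sample. The edgeR step was tested on simulated counts. Named genes were the 9 members, the 2 strongest called genes of each list at 20 CPM or more, and the 5 genes most alike in profile, of which 1 is not reported here. The members, lists and tests were chosen with earlier results of these data known. The labels give replicate numbers but do not say that a number marks a shared animal or day, and the numbers were not treated as pairs.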

Additional observations from a re-analysis of the deposited data

Results flagged for a closer look

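The change of Cd22 between the treatments differed between lineages by a test of the difference itself. It was more negative in T-like than in monocyte/macrophage-like cells (-3.64 on the log2 scale), and more negative in dendritic-cell-like than in monocyte/macrophage-like cells (-2.20). The second of these passed the threshold in 1 of the 6 fits that left out a sample. The change of Bank1 was also more negative in T-like than in monocyte/macrophage-like cells (-2.39).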

How the results depend on the processing

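In T-like cells 9 genes were called lower in each fit that left out 1 sample. With cells holding any of the 10 B markers left out, 2 of the 9 genes passed the filter on low counts. With the 7 markers, an alternative chosen after seeing the data, 4 did. As said above, the filter lets genes in through the αPD-1 samples in which they were higher, so no count of calls is given there. Over all immune cells the count of 8 became 2 with the replicate block and 3 to 9 with 1 sample left out. In B-like cells the count of 0 became 2 without a filter on low counts, where the median of all genes moved from -0.17 to -1.06, 9 with LogNormalize, whose B-like class took in a cluster that also met T markers, and 0 to 2 with 1 sample left out. In dendritic-cell-like cells 7 became 0 with either marker set left out, where no member could be tested, and 4 to 8 with 1 sample left out. In monocyte/macrophage-like cells 4 became 8 without the filter, 8 with DESeq2, 7 at resolution 0.4, 8 with no upper gene limit, 1 with no doublet removal, 0 with LogNormalize, 0 with either marker set left out, and 0 to 8 with 1 sample left out. Of the differences between lineages, the count for T-like against monocyte/macrophage-like cells of 2 became 1 with DESeq2, resolution 0.4, LogNormalize or no upper gene limit, and 2 to 3 with 1 sample left out. For dendritic-cell-like against monocyte/macrophage-like cells 1 became 2 without the filter, 0 at a mitochondrial limit of 5%, at resolution 0.4 or 1.2, with LogNormalize, with no upper gene limit or with either marker set left out, and 0 to 2 with 1 sample left out. For T-like against dendritic-cell-like cells 0 became 0 to 1 with 1 sample left out.

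Values that changed sign were not past the threshold on either side. Pou2af1 in B-like cells was 0.031 with RLE factors, 0.037 with DESeq2, 0.070 with the B and T cluster counted as B cells, and 0.012, 0.138, 0.041 and 0.139 without αPD-1 replicate 1, 2 or 3 or αPD-1 + corin replicate 1 (-0.30 to 0.139 with any 1 sample left out). Cd22 in monocyte/macrophage-like cells was 0.17 with LogNormalize, 0.65 without cells holding any of the 10 markers and 0.62 with the 7. Spib was 0.072 in dendritic-cell-like cells at resolution 0.4 and -0.048 in plasmacytoid-dendritic-cell-like cells without αPD-1 + corin replicate 2 (-0.048 to 0.51 with any 1 sample left out). The cause was not tested in any of these. Same-numbered samples had correlations of 0.0485, 0.0437 and -0.189, so the numbers were not shown to pair them, and not every sample correlated best with its own number. Plasma-like cells and the cluster with B and T transcripts had under 10 cells in at least 1 αPD-1 + corin sample, and no alternative could be fitted there. The B-like comparison rests on 13 to 47 cells in each αPD-1 + corin sample.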

Other observations

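One cluster of 102 cells, 100 of them from αPD-1 samples, met no marker list and was left unnamed, with a median of 1425 UMIs per cell. Pou2af1 in it ranged from 129 to 595 CPM over the αPD-1 samples, while Blk and Spib had 0 UMIs.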
